A study of Flaveria angustifolia and Flaveria bidentis and Flaveria brownii with 21 samples.

Results

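Flaveria brownii and Flaveria pubescens, both placed in clade B of the genus, were compared in 4 of the 18 Flaveria leaf RNA-seq libraries, 1 library per species and leaf stage. F. brownii is known as a C4-like species and F. pubescens as a C3-C4 intermediate; photosynthetic type and clade are textbook knowledge and not labels. Juvenile leaves had just begun to expand and mature leaves were the newest that had fully expanded. Each library pooled leaves of several plants grown in a greenhouse, so the spread between plants of a species was not measured. Values are RPM (reads scaled to a library total of 1e+06 reads assigned to Arabidopsis loci), and differences are F. brownii minus F. pubescens on the log2(RPM + 1) scale, taken within each stage. A locus counted as differing at both stages when the difference was at least 1, in the same direction, in juvenile and in mature leaves, and 1312 of 14568 tested loci (mean of at least 2 RPM over the 4 libraries) met this rule. These differences at both stages are a description with no test.

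In C4 photosynthesis, PEP carboxylase in mesophyll cells fixes bicarbonate into a C4 acid, a decarboxylase releases the CO2 around Rubisco in the bundle sheath, and PPDK regenerates the acceptor PEP. C3-C4 intermediates of Flaveria release photorespiratory CO2 from glycine in the bundle sheath, through glycine decarboxylase, and run a C4 cycle to a limited degree. C4-like species run a nearly complete cycle but keep some Rubisco in the mesophyll. Loci are Arabidopsis loci to which Flaveria reads were assigned, so reads of a gene family could have been split between its members. Loci of a family are therefore uncertain as separate genes. Correlation between members over the 18 libraries was computed only for PEP carboxylase, NADP-malic enzyme, the P protein of glycine decarboxylase and serine hydroxymethyltransferase. For other families the sharing of reads was not examined.

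The 4 libraries held 5.54 M (F. brownii juvenile), 6.93 M (F. brownii mature), 6.195 M (F. pubescens juvenile) and 7.16 M reads (F. pubescens mature; M, 1e+06 reads). The F. brownii mature library stood apart from the other mature libraries. Its mitochondrial share of reads was 0.640%, against 0.0494 to 0.241% in the 7 other mature libraries, and its 50 most abundant loci took 24.9% of reads, against 31.6 to 40.7%. The part of these features in the differences was not tested. Fewer cells of a type and less RNA per cell cannot be told apart in such bulk samples.

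More loci were higher than lower in F. brownii. At both stages 879 loci were higher (6.03% of those tested) and 433 lower (2.97%). The nearest loci inside the limit of 1 had a smaller stage difference of 1.0001 and 1.0002 (higher) and of 1.0003 and 1.0014 (lower), and the nearest outside had 0.9994 and 0.9987 (higher) and 0.9997 and 0.9979 (lower). In limma, fitted to all 18 libraries with species and stage terms, 702 loci passed as higher (4.82%) and 311 as lower (2.13%) at an adjusted p under 0.05. Of these, 594 and 266 also differed at both stages. The contrast of a locus is the mean of its 2 stage differences, so this overlap is not separate support. The residual spread in this fit is how species differ in their response to leaf stage, with 6 degrees of freedom. It comes only from species with a library of each stage, F. brownii and F. pubescens among them. The balance of directions depended on scaling. The median over all loci was 0.05 in juvenile and 0.36 in mature leaves, and with TMM factors 0.03 and −0.02. With TMM 422 loci passed as higher (2.90%) and 479 as lower (3.29%), so the share higher went from 69.3 to 46.8%. At both stages TMM gave 631 higher (4.33%) and 619 lower (4.25%). In edgeR, on reads recovered from the RPM, 439 passed as higher (3.01%) and 414 as lower (2.84%). Without the F. brownii mature library 177 passed as higher (1.21%) and 141 as lower (0.968%). Without F. pubescens juvenile 313 loci passed in all, and without F. pubescens mature 178.

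**Figure D1:**
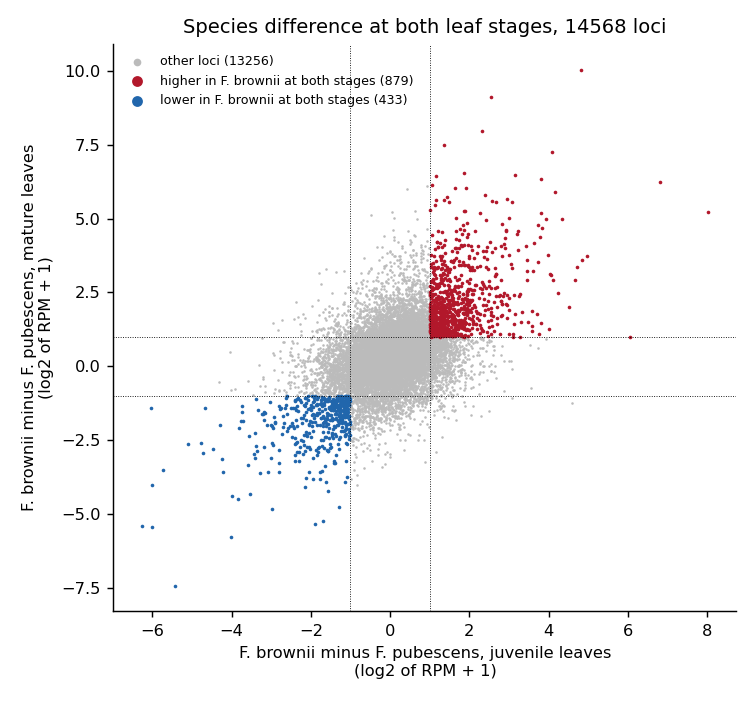
Each point is a locus, with the F. brownii minus F. pubescens difference (log2 of RPM + 1) in juvenile leaves on the horizontal axis and in mature leaves on the vertical axis; dotted lines mark differences of 1. The 879 red loci were higher and the 433 blue loci lower in F. brownii at both stages.

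Of 25 C4 cycle enzymes, PEP carboxylase (3 loci) and NADP-MDH passed as higher in F. brownii (4.82% of all tested loci), and none as lower. PPC1, a locus of PEP carboxylase, which carries out the first fixation of the cycle, stood at 2701 RPM in juvenile and 2901 RPM in mature leaves of F. brownii, and at 198.4 and 1366 RPM in F. pubescens. Both F. brownii values were above both F. pubescens values. The juvenile F. pubescens value was the lowest of the 4, and the test of stage dependence did not pass (adjusted p = 0.264). The contrast was 2.42 ± 0.53 (log2 ± SE; adjusted p = 0.0208). PPC2 and PPC3 had contrasts of 2.64 and 2.64 (adjusted p = 0.0140 and 0.0149). The log2 values of the 3 PEP carboxylase loci correlated at r from 0.992 to 0.999 over the 18 libraries, so these loci cannot be told apart and may count the same reads. With TMM PPC1 no longer passed (adjusted p = 0.0546), and in edgeR none of the 3 did (0.0673 to 0.0842). Without the F. pubescens juvenile library none of the 3 passed (0.0898 to 0.144), nor did PPC1 and PPC3 without F. brownii juvenile (0.0827 and 0.0632).

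NADP-MDH, which reduces the C4 acid oxaloacetate to malate, was higher in F. brownii at both stages. Its levels were 1196 and 2301 RPM in juvenile and mature leaves of F. brownii and 306.7 and 624.2 RPM in F. pubescens. The stage differences were 1.96 and 1.88 (with TMM 1.94 and 1.44), and the contrast 1.92 ± 0.29 (adjusted p = 0.00353). Leaving out any 1 of the 4 libraries kept this call (adjusted p from 0.00526 to 0.0319). The 4 C3 libraries (F. cronquistii and F. pringlei) ran from 196.3 to 638.3 RPM and the 5 C4 libraries (F. bidentis, F. kochiana and F. trinervia) from 4305 to 7307 RPM. Both F. pubescens values lay within the C3 range, and both F. brownii values between the ranges.

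The other enzymes of the cycle did not pass, and their values at the stages varied. PPDK stood at 2978 and 5763 RPM in juvenile and mature F. brownii and at 580.9 and 3109 RPM in F. pubescens, with stage differences of 2.36 and 0.89. Its contrast of 1.62 did not pass (adjusted p = 0.119). NADP-ME1, a locus of the malic enzyme that releases CO2, was at 1587 and 1837 RPM in F. brownii and at 552.2 and 2470 RPM in F. pubescens. The malic enzyme difference was thus 1.52 in juvenile and −0.43 in mature leaves, and the contrast 0.55 (95% interval −0.54 to 1.64). The 4 malic enzyme loci correlated at r from 0.908 to 0.981 over the 18 libraries and may share reads. The carbonic anhydrase locus CA1, which supplies bicarbonate, showed the same pattern, with 6309 and 2695 RPM in F. brownii and 2050 and 4714 RPM in F. pubescens. RP1 and RP2, loci for the regulator of PPDK, differed more in mature leaves (1.62 and 1.76) than in juvenile leaves (0.88 and 0.36), and neither contrast passed (adjusted p = 0.107 and 0.168).

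AlaAT2, ASP1 and AMK2 had some of the smaller contrasts of the list. AlaAT2, an alanine aminotransferase, was at 333.3 and 679.7 RPM in F. brownii and at 310.7 and 674.2 RPM in F. pubescens, with a contrast of 0.06 (95% interval −0.67 to 0.78). ASP1, an aspartate aminotransferase, had a contrast of −0.00054 (interval −0.72 to 0.71), while its plastid relative ASP5 had 1.202 (adjusted p = 0.0735). AMK2, an adenylate kinase that clears a product of PPDK, was at 48.1 and 45.2 RPM in F. brownii and at 55.5 and 70.4 RPM in F. pubescens, all within the C3 range of 34.3 to 80.2 RPM. The C4 libraries had 746.5 to 2515 RPM of AMK2. PPCK1 and PPCK2, kinases of PEP carboxylase, had contrasts of −0.18 and 0.11 and were higher in the mature than in the juvenile library of both species. In all, 4 of 25 C4 cycle enzymes differed at both stages and the same 4 passed, all higher (PPC1, PPC2, PPC3 and NADP-MDH). The 3 PEP carboxylase loci may count the same reads, so the 4 may not be separate results. With TMM 2 differed at both stages and 3 passed, and in edgeR 1 passed, NADP-MDH. The list median was 0.88 in juvenile and 0.38 in mature leaves, against 0.05 and 0.36 over all tested loci. In juvenile leaves 12 of 25 were higher by at least 1 and none lower, where 12.0% of all loci were higher by that amount. In mature leaves 7 were (23.0% of all loci).

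**Figure D2:**
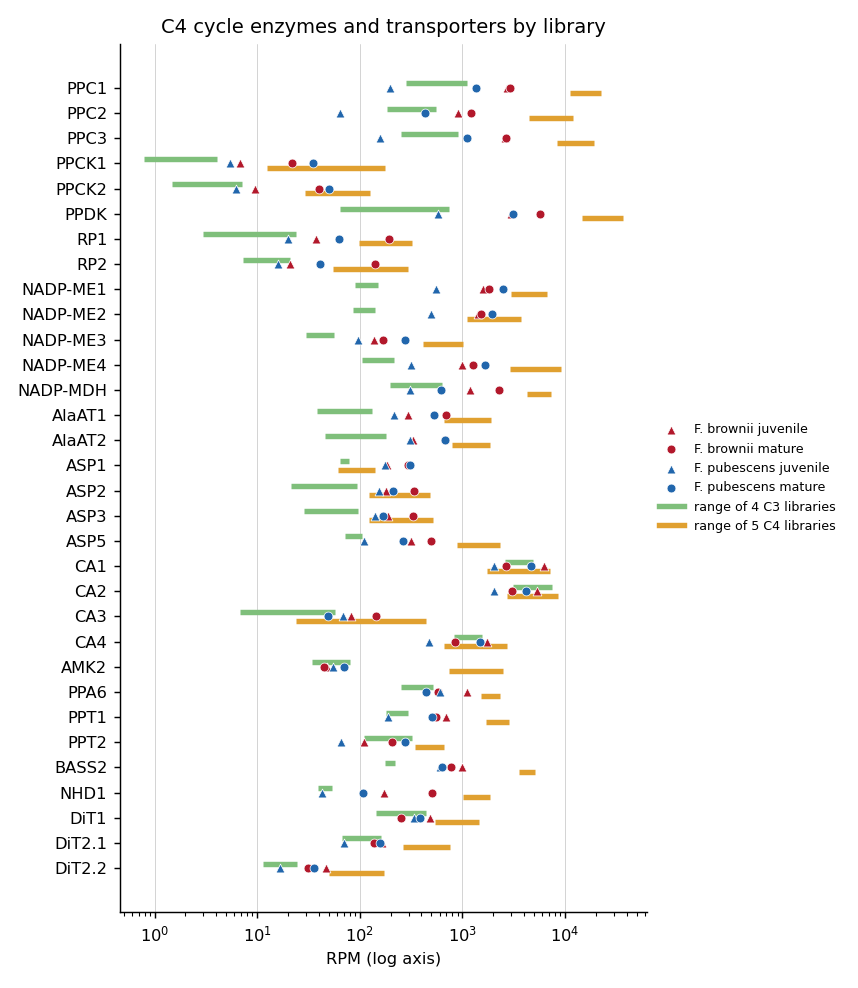
Levels of 25 C4 cycle enzymes and 7 transporters in RPM (log axis) in each of the 4 libraries (triangles, juvenile; circles, mature; red, F. brownii; blue, F. pubescens), with bars for the range of the 4 C3 and 5 C4 libraries. For NADP-MDH both red points lie between the C3 and C4 bars; for AMK2 all 4 points lie on the C3 bar.

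Among the 7 metabolite transporters, NHD1 passed as higher in F. brownii (4.82% of all tested loci). NHD1, a sodium antiporter that works with the pyruvate carrier BASS2 at the chloroplast envelope, was at 174.2 and 502.4 RPM in juvenile and mature F. brownii and at 43.1 and 106.9 RPM in F. pubescens. Its values did not overlap between the species, and the contrast was 2.11 ± 0.35 (adjusted p = 0.00552). It ended just above the threshold without F. brownii mature (adjusted p = 0.0503) or F. pubescens juvenile (0.0554). BASS2 itself was at 1004 and 775.0 RPM in F. brownii and at 607.6 and 641.3 RPM in F. pubescens, a contrast of 0.50 (interval −0.18 to 1.18). Both species exceeded the BASS2 levels of the C3 libraries, and both lay under those of the C4 libraries. PPT1, which carries PEP, differed in juvenile leaves (698.3 against 190.5 RPM) and had close levels in mature leaves (559.9 against 509.4 RPM), and its contrast did not pass (1.00, adjusted p = 0.112). The dicarboxylate carriers DiT2.1 and DiT2.2 also had more in juvenile F. brownii, by 1.205 and 1.46, with mature differences of −0.19 and −0.18. None of 4 loci of other decarboxylases passed in limma or in edgeR. Of these, PCK1, a PEP carboxykinase, had the largest contrast (0.69, adjusted p = 0.348).

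Photorespiration genes differed in both directions. GLDP1 and GLDP2, loci for the P protein of glycine decarboxylase, which releases photorespiratory CO2 in mitochondria, were higher in F. brownii. GLDP1 stood at 1528 and 2530 RPM in juvenile and mature F. brownii and at 625.8 and 929.9 RPM in F. pubescens. GLDP2 stood at 1031 and 1819 RPM against 398.0 and 622.5 RPM. In each stage F. brownii exceeded F. pubescens for both loci, and the contrasts were 1.36 ± 0.31 and 1.46 ± 0.31 (adjusted p = 0.0248 and 0.0197). These P protein loci correlated at r = 0.973 over the 18 libraries and cannot be told apart. SHM2, a mitochondrial serine hydroxymethyltransferase locus acting with glycine decarboxylase, which correlated with SHM1 at r = 0.908, was at 1325 and 1613 RPM against 314.0 and 659.1 RPM, a contrast of 1.68 ± 0.32 (adjusted p = 0.0114). GLDH2, an H protein locus, was at 29.1 and 32.5 RPM against 17.3 and 7.68 RPM (1.33, adjusted p = 0.0365) and did not reach 1 in juvenile leaves. The other measured subunits, GLDT, GLDH1, GLDH3, mLPD1 and mLPD2, had contrasts of 0.20 to 0.54 that did not pass.

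Lower in F. brownii were PGLP2, a phosphoglycolate phosphatase, and PLGG1, which carries glycolate and glycerate across the chloroplast envelope. PGLP2 was at 45.0 and 173.5 RPM in juvenile and mature F. brownii and at 281.3 and 362.8 RPM in F. pubescens (contrast −1.84 ± 0.50, adjusted p = 0.0466). Both F. pubescens values and the mature F. brownii value exceeded the highest of the 14 other libraries, 171.4 RPM. PLGG1 was at 117.3 and 72.9 RPM in F. brownii and at 260.5 and 281.2 RPM in F. pubescens (−1.54 ± 0.36, adjusted p = 0.0276). Of 25 tested photorespiration genes 4 passed as higher and 2 as lower (4.82% and 2.13% of all tested loci). Equal numbers differed at both stages (6.03% and 2.97% of all tested loci), where GGT1, a glutamate:glyoxylate aminotransferase (1.54 and 1.12, adjusted p = 0.0646), took the place of GLDH2. With TMM 2 passed in each direction, and in edgeR 1 as higher and 2 as lower. GLDP1 and GLDH2 lost the call with TMM (adjusted p = 0.0592 and 0.0528). Of these 6 calls, those of GLDP1, GLDP2, GLDH2 and PLGG1 ended without the F. brownii mature library (adjusted p from 0.107 to 0.203) and without F. pubescens mature (0.0608 to 0.260), the latter also for PGLP2 (0.231). GLDP1, GLDP2, GLDH2, SHM2 and PGLP2 ended without F. pubescens juvenile (0.0502 to 0.134), and PGLP2 and PLGG1 without F. brownii juvenile (0.214 and 0.0608). The list median was 0.50 in juvenile and 0.36 in mature leaves, against 0.05 and 0.36 over all tested loci. With TMM it was −0.07 in mature leaves.

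**Figure D3:**
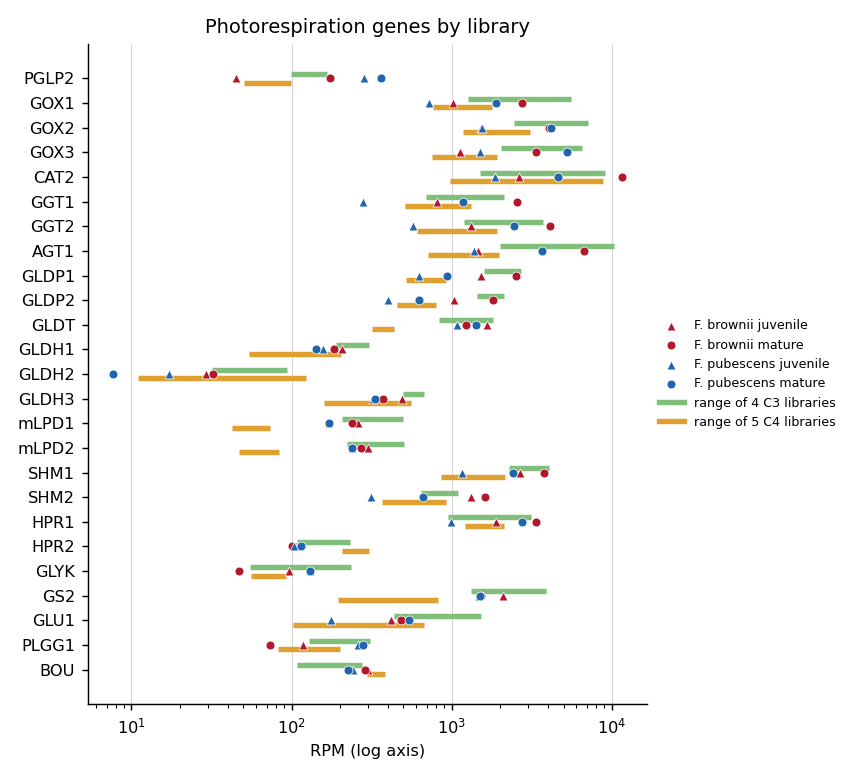
Levels of 25 photorespiration genes in RPM (log axis) in the 4 libraries, with bars for the range of the 4 C3 and 5 C4 libraries. For GLDP1 and GLDP2 the red F. brownii points lie to the right of the blue F. pubescens points of the same shape, and for PGLP2 and PLGG1 to the left.

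Of the photosystem genes 3 of 16 in photosystem I and 2 of 24 in photosystem II passed as lower in F. brownii (2.13% of all tested loci), and none as higher. PSAK, a photosystem I subunit at its antenna side, was at 1426 and 1533 RPM in juvenile and mature F. brownii and at 10036 and 11005 RPM in F. pubescens. The 14 other libraries ran from 2029 to 6812 RPM, so F. brownii lay under all of them and F. pubescens over all of them. The contrast was −2.83 ± 0.34 (adjusted p = 9.3e-04) and was kept when any 1 of the 4 libraries was left out (adjusted p up to 0.0127). PSAE1 and PSAE2, loci for a stromal subunit of photosystem I, had contrasts of −1.32 and −1.49 (adjusted p = 0.0256 and 0.0231). Reads of PSAE1 and PSAE2 may be shared, which was not examined. PSBQ2, of the oxygen-evolving complex, was at 748.0 and 607.4 RPM against 1540 and 2872 RPM (−1.64 ± 0.34, adjusted p = 0.0172). These 3 calls ended without F. brownii mature (0.106 to 0.147) or F. pubescens mature (0.0918 to 0.145), and those of PSAE1 and PSAE2 without F. pubescens juvenile (0.101 and 0.114).

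The photosystem I count was 3 with TMM and in edgeR as well. In juvenile leaves 5 of 16 were above F. pubescens and 11 below, and in mature leaves 1 above and 15 below. Over all tested loci 7665 were above and 6899 below in juvenile leaves, and 9731 above and 4830 below in mature leaves. The photosystem I list median was −0.30 in juvenile and −1.22 in mature leaves. The photosystem II count was 1 with TMM and 1 in edgeR. The genes that passed were PSBQ2 and LHCB2.2, an antenna protein named after its values were seen (−1.38, adjusted p = 0.0404, with TMM 0.0511). The photosystem II list median was −0.22 in juvenile and −1.44 in mature leaves. In mature leaves all 24 were below F. pubescens, 20 of them by at least 1, where 8.13% of all tested loci were lower by that amount. In juvenile leaves 15 of 24 were below F. pubescens, 3 by at least 1 (10.3% of all loci), and 9 above. No photosystem gene passed the test of stage dependence. LHCB4.2, a minor antenna protein of photosystem II named after its values were seen, was at 1889 and 660.2 RPM in juvenile and mature F. brownii and at 1327 and 3323 RPM in F. pubescens. Its level was thus lower in the mature library of F. brownii and higher in that of F. pubescens. The summed level of the photosystem II list went from 68431 RPM in juvenile to 47642 RPM in mature F. brownii, and from 80190 to 132321 RPM in F. pubescens. The F. brownii mature library is also the one with the high mitochondrial share and 865.0 RPM of the senescence gene SAG12; their part in this difference was not tested.

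In the Calvin-Benson cycle, RBCS3B, a Rubisco small subunit locus, was lower in F. brownii at both stages. Reads of small subunit loci may be shared. RBCS3B stood at 3621 and 2706 RPM against 8160 and 8400 RPM in F. pubescens (−1.40 ± 0.32, adjusted p = 0.0257). The call ended without F. brownii juvenile (0.0525), F. brownii mature (0.0823) or F. pubescens mature (0.177). CP12-1, a small regulator of the cycle, was at 545.4 and 1080 RPM against 193.5 and 571.0 RPM (1.204, adjusted p = 0.0365, with TMM 0.115, without F. brownii mature 0.126) and is named after its values were seen. No other of the 24 genes passed (4.82% of all tested loci passed as higher and 2.13% as lower). The list median was 0.66 in juvenile and −0.18 in mature leaves, against 0.05 and 0.36 over all tested loci.

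Cyclic electron flow through the NDH complex, which supplies ATP without NADPH, had 2 of 22 genes that passed as higher (4.82% of all tested loci) and none as lower, with 1 of 22 as higher with TMM and 1 in edgeR. NDHS, the subunit at the ferredoxin site, was at 386.8 and 328.3 RPM in juvenile and mature F. brownii and at 62.1 and 144.6 RPM in F. pubescens (1.90 ± 0.36, adjusted p = 0.0110). Its call ended without F. pubescens juvenile (0.0888). PNSB2, named after its values were seen, was at 101.0 and 79.0 RPM against 25.0 and 45.3 RPM (1.38, adjusted p = 0.0248, with TMM 0.0733). The list median was 0.54 in juvenile and 0.62 in mature leaves, against 0.05 and 0.36 over all tested loci.

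**Figure D4:**
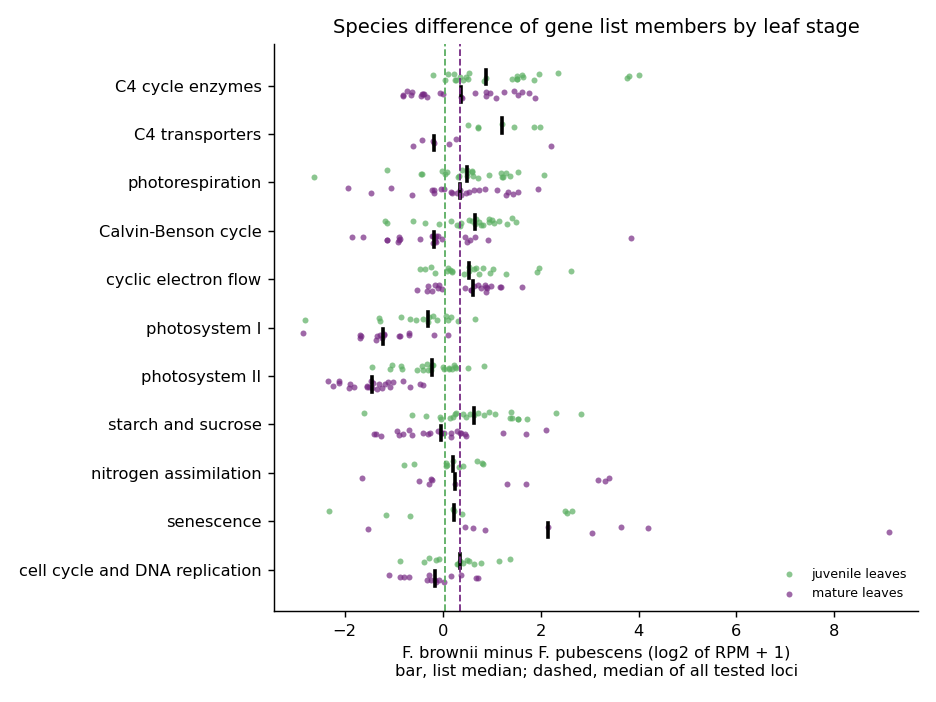
F. brownii minus F. pubescens difference (log2 of RPM + 1) of the members of 11 gene lists in juvenile (green) and mature leaves (purple), with the list median as a black bar and the median of all tested loci at each stage as a dashed line. The photosystem II median is −0.22 in juvenile and −1.44 in mature leaves.

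In starch metabolism SS2, a starch synthase, and BAM3, a chloroplast beta-amylase, were higher in F. brownii. SS2 was at 271.4 and 165.2 RPM against 53.4 and 69.4 RPM (1.78 ± 0.40, adjusted p = 0.0234), and in F. pubescens both values lay under all 14 other libraries, whose lowest was 88.7 RPM. BAM3 was at 87.8 and 201.7 RPM against 11.5 and 46.2 RPM (2.47 ± 0.43, adjusted p = 0.00771). Of 25 starch and sucrose genes these 2 passed as higher (4.82% of all tested loci), also with TMM, and in edgeR 1 passed, since SS2 did not (adjusted p = 0.0566). Leaving out any 1 of the 4 libraries ended the call of SS2 (adjusted p from 0.0564 to 0.150). That of BAM3 ended without F. brownii mature (0.0529) or F. pubescens juvenile (0.0724).

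The clock genes CCA1 and LHY, which encode related transcription factors that peak in the morning in Arabidopsis, were higher in F. brownii. CCA1 was at 28.4 and 24.7 RPM in juvenile and mature F. brownii and at 1.45 and 6.01 RPM in F. pubescens (2.73 ± 0.47, adjusted p = 0.00697). LHY was at 90.0 and 59.8 RPM against 7.10 and 20.7 RPM (2.49 ± 0.46, adjusted p = 0.00998). The F. brownii values lay within the range of the 14 other libraries for both genes, and the juvenile CCA1 value of F. pubescens under it. Both calls ended without F. pubescens juvenile (0.0611 and 0.0846). Of 8 tested clock genes these 2 passed as higher (4.82% of all tested loci). The other 6 tested clock genes did not pass, and with TMM 1 of them, PRR5, named after its values were seen, passed as lower (adjusted p = 0.0346, against 0.0545 without TMM).

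AOS, an enzyme of jasmonate synthesis, was lower in F. brownii, with 17.0 and 73.8 RPM against 470.5 and 574.2 RPM in F. pubescens. The contrast was −3.83 ± 0.66 (adjusted p = 0.00700), and it ended without F. pubescens mature (0.0666). The C3 libraries ran from 126.9 to 513.6 RPM and the C4 libraries from 14.6 to 166.4 RPM. None of the other 6 tested jasmonate and defence genes passed in limma (2.13% of all tested loci passed as lower). PR1 and PR2 passed as higher in edgeR, where 3.01% of all tested loci did. LOX2, the lipoxygenase before AOS, named like PR1 and PR2 after its values were seen, was at 473.7 and 333.1 RPM against 739.8 and 919.8 RPM (−1.05, adjusted p = 0.419). HSP17.4, a small heat shock protein, was higher in F. brownii at 80.6 and 113.6 RPM against 19.2 and 13.7 RPM (2.49 ± 0.35, adjusted p = 0.00250), in every fit that left out 1 of the 4 libraries (adjusted p up to 0.0366). It was the only one of 5 tested heat shock genes to pass (4.82% of all tested loci passed as higher).

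Of 9 tested senescence genes 2 passed as higher and 1 as lower (4.82% and 2.13% of all tested loci). Median differences of the list were 0.23 in juvenile and 2.16 in mature leaves, against 0.05 and 0.36 over all tested loci. By at least 1, 5 were higher and 1 lower in mature leaves (23.0% and 8.13% of all tested loci). Juvenile leaves had 3 higher and 2 lower by that amount (12.0% and 10.3%). SAG12, a cysteine protease of ageing leaves, was at 14.3 RPM in juvenile and 865.0 RPM in mature F. brownii, and at 1.61 and 0.559 RPM in F. pubescens (5.83 ± 1.07, adjusted p = 0.00991). Its call ended without F. brownii mature (0.0909) or F. pubescens mature (0.0924). WRKY53, a transcription factor of leaf senescence, was at 7.23 and 17.61 RPM against 0.323 and 1.26 RPM (2.84 ± 0.40, adjusted p = 0.00274). It passed in every fit that left out 1 library (adjusted p up to 0.0338). SEN1 was lower, at 1.08 and 9.53 RPM against 9.36 and 29.2 RPM (−1.92, adjusted p = 0.0387), a call that every left-out library ended (0.0936 to 0.176). NAP, SAG13 and SGR1, named after their values were seen, were high in the F. brownii mature library alone, at 32.6, 20.4 and 58.5 RPM, against 0.838, 0.699 and 12.3 RPM in mature F. pubescens. None of their contrasts passed (adjusted p from 0.134 to 0.671).

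**Figure D5:**
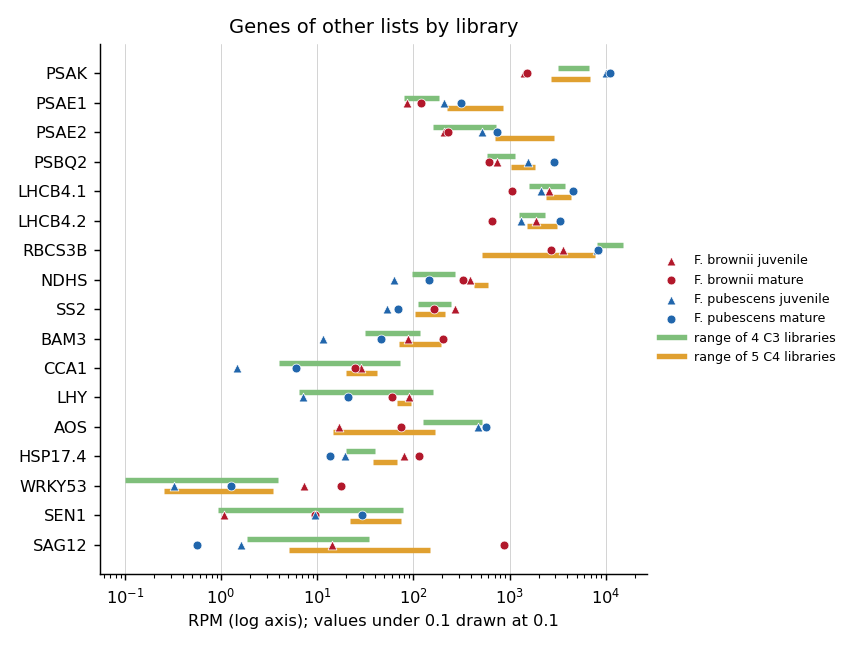
Levels in RPM (log axis; values under 0.1 RPM drawn at 0.1) of 17 genes of the photosystem, Calvin-Benson, NDH, starch, clock, jasmonate, heat shock and senescence lists in the 4 libraries, with bars for the range of the 4 C3 and 5 C4 libraries. LHCB4.1 and LHCB4.2 were added after their values were seen. For PSAK the red F. brownii points lie under, and the blue F. pubescens points over, both bars.

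In the remaining lists little or nothing passed. Of 15 tested cell cycle and DNA replication genes, none passed in limma or edgeR, and MCM6, of the replicative helicase, had the largest contrast (0.57, adjusted p = 0.656). Their summed level was 943.4 and 41.3 RPM in juvenile and mature F. brownii and 762.8 and 37.6 RPM in F. pubescens, so leaves of a stage were alike in this measure. None of 11 nitrogen assimilation, 5 flavonoid, and 6 bundle sheath and chloroplast regulator genes passed in either tool. Their largest contrasts were GLN1;2, a cytosolic glutamine synthetase (2.06, adjusted p = 0.0862), F3'H, a flavonoid hydroxylase (1.44, 0.0917), and GLK1, a regulator of chloroplast genes (0.89, 0.132). Among markers of other cell types, none of 5 phloem and 3 xylem genes passed in either tool, with SUC2, the phloem sucrose carrier, at 1.93 (adjusted p = 0.0735) and IRX1 at −0.46 (0.357). Summed phloem markers were at 253.1 and 849.6 RPM in juvenile and mature F. brownii and at 137.4 and 283.3 RPM in F. pubescens. At each stage 3 of the 5 were above F. pubescens and 2 below. Their median difference was 0.80 in juvenile and 0.14 in mature leaves (with TMM 0.78 and −0.27), against 0.05 and 0.36 over all tested loci. The part of phloem in the other differences was not tested. Of 6 stomatal and epidermal genes GL2, a trichome regulator, passed (1.58, adjusted p = 0.0483, with TMM 0.0644), and of 2 tested meristem and flower genes (of 5 listed) AP1 (1.74, adjusted p = 0.0302). Over all tested loci 4.82% passed as higher. AP1 was at 5.06 and 9.67 RPM against 1.94 and 0.978 RPM. Each of the 2 tested meristem and flower genes was higher in F. brownii by at least 1 at both stages (6.03% of all tested loci). With TMM 0 of them were. The defining markers STM and AG, not tested, were under 1 RPM in all 4 libraries. The part of such tissue in the differences was not tested. GL2 and AP1 did not pass without F. brownii mature (0.259 and 0.176), F. pubescens juvenile (0.0920 and 0.0669) or F. pubescens mature (0.274 and 0.213).

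Outside the lists, loci keep their identifiers, since the deposited table does not pair them with names. AT5G46900 was at 110.7 and 74.3 RPM in juvenile and mature F. brownii and at 0 in both F. pubescens libraries. Against a floor of 3 reads per library it was at least 228.7-fold higher in juvenile and 177.4-fold higher in mature leaves. AT2G02510 was at 344.9 and 52.3 RPM against 0.323 and 0.419 RPM (6.63 ± 0.59, adjusted p = 3.7e-04). Among the lower loci, the chloroplast locus ATCG00220 was at 8.13 and 5.197 RPM in F. brownii and at 584.5 and 268.9 RPM in F. pubescens (−5.72 ± 0.63, adjusted p = 6.7e-04). AT4G16980 was at 49.7 and 4.76 RPM against 2192 and 990.1 RPM (−6.43 ± 0.71, adjusted p = 6.7e-04). All 4 calls were kept when any 1 of the 4 libraries was left out. These loci were chosen for the largest differences at both stages in these same libraries. Their p-values and kept calls follow from that choice and are a description only.

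The loci that differed at both stages were then looked up in C4 against C3 species, in libraries that had no part in choosing them. This contrast set the mean of F. bidentis, F. kochiana and F. trinervia against the mean of F. cronquistii and F. pringlei in the same limma fit, where 7.96% of all tested loci passed as higher in C4 and 10.9% as lower. Of the 879 loci higher in F. brownii, 80 (9.10%) passed as higher in C4 and 146 (16.6%) as lower. Of the 433 lower in F. brownii, 66 (15.2%) were higher in C4 and 58 (13.4%) lower. The median C4 minus C3 difference was −0.24 over the higher loci and 0.05 over the lower loci, against −0.11 over all loci. With TMM 73 and 108 of the higher loci and 103 and 71 of the lower loci passed as higher and lower in C4. All 5 genes of the C4 enzyme and transporter lists that passed in F. brownii (PPC1, PPC2, PPC3, NADP-MDH and NHD1) were also higher in C4, by 3.91 to 4.89, where 21 of 25 enzymes and 7 of 7 transporters passed as higher. GLDP1, GLDP2 and SHM2, higher in F. brownii, were lower in C4, with differences of −1.64, −1.54 and −0.78. PSAE1 and PSAE2, lower in F. brownii, were higher in C4 by 1.70 and 1.78. These p-values do not cover the spread between species of a type, since species was a fixed term.

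Whether the species difference depended on leaf stage was tested on the change from juvenile to mature leaves in the 7 species that had a library of each. None of 14568 loci passed in limma at an adjusted p under 0.05 (0%, lowest adjusted p 0.136), and 1729 (11.9%) had an unadjusted p under 0.05. In edgeR on the recovered reads 0 passed and 1449 had an unadjusted p under 0.05. By size, 40 loci were higher in F. brownii by at least 1 in juvenile leaves and lower by at least 1 in mature leaves (0.275%), and 113 the reverse (0.776%). In the photosystem II list 22 of 24 members had a more negative difference in mature than in juvenile leaves, and 14 had an unadjusted p under 0.05. Among C4 cycle enzymes this held for 20 of 25, and 9 had an unadjusted p under 0.05. Over all tested loci 5245 of 14568 had a more negative difference in mature leaves.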

How the data were processed

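Values in RPM come from 1 table that the authors deposited, scaled so that each library sums to 1e+06, with 20551 Arabidopsis loci and 18 Flaveria libraries. The 3 out-group samples were not analysed here. TAIR10 is the genome build in the submitters' processing notes; the aligner and counting rule are not given in the sources used here. All values (100%) were whole multiples of 1 read (tolerance 0.001 read), which gave the read totals. A floor of 3 reads is 0.419 to 0.542 RPM in the 4 libraries; such limits cover counting error only.

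Differences used log2(RPM + 1). limma 3.58.1 (R 4.3.3; moderated variances with a mean trend, two-sided p-values, Benjamini-Hochberg adjustment over 14568 loci, threshold 0.05) had species and stage terms over 18 libraries. Stage pairs the libraries because the labels name it. edgeR 4.0.16 (quasi-likelihood) was run on recovered reads. The statistical scripts were tested on simulated data in which all species shared the same stage response at a locus, apart from planted changes. That setting lacks the spread between species on which the real fits rest, so it does not show their error rates or power. P-values rest on how species differ in their response to leaf stage, each stage seen in 1 pooled library. They do not measure spread between replicate libraries or plants. Plots used matplotlib 3.10.9.

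The comparison, its loci and the 21 gene lists (268 loci, 267 in the table, 254 tested) were chosen with earlier results of these data known. Named genes were all members of the C4, decarboxylase and photorespiration lists, up to 4 members per other list that passed and differed by at least 1 at both stages (else the largest contrast), and the top 2 unlisted loci per direction (of 6 planned, since their names are not in the table). No sequence was used.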

Additional observations from a re-analysis of the deposited data

How the results depend on the processing

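The count of 1312 loci that differed at both stages became 1541 with a pseudocount of 0.5 RPM, 617 with 5 RPM, 816 with a mean of at least 10 RPM, 1428 with no filter, 1250 with TMM, 205 at a limit of 2 (log2) and 9179 for any difference of the same sign; a single stage gave 3253 (juvenile) to 4535 (mature). The count of 1013 loci that passed in limma became 591 with a mean of at least 10 RPM, where fewer loci were tested, and 763 with the 4 libraries only. edgeR gave 853 and TMM 901, of which 730 also passed without TMM. Leaving out 1 of the 4 libraries gave 178 to 1477. Without the stage term (no replicate block) 82 passed. Stage pairs the libraries by label, so this fit puts the stage difference into the spread. The test of stage dependence gave 0 loci in all alternatives but a pseudocount of 5 RPM, with 41; the 4 libraries themselves cannot be left out of it. Of the loci that differed at both stages, 138 passed in C4 against C3 species in the same direction (80 higher and 58 lower), while 146 of the higher and 66 of the lower loci passed in the opposite direction. The 138 of 1312 became 87 of 617 at a pseudocount of 5 RPM and 88 of 816 at a mean of at least 10 RPM. Fewer loci differed at both stages in these settings, and the cause was not tested further.

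Of 32 genes named by the rule above that passed, 8 also passed in every alternative in which they were tested other than the fit without stage. Genes named after their values were seen, such as LHCB2.2, CP12-1 and PNSB2, are not in this count. None of the 32 changed direction. In 24 genes that did not pass, the sign changed when 1 library was left out, so no direction was drawn: PPCK1 (−0.74 to 0.37), PPCK2 (−0.48 to 0.69), NADP-ME1 (−0.54 to 1.64), NADP-ME2 (−0.44 to 1.58), NADP-ME3 (−0.73 to 0.53), NADP-ME4 (−0.47 to 1.70), AlaAT2 (−0.18 to 0.29), ASP1 (−0.40 to 0.40), CA1 (−0.34 to 1.16), CA2 (−0.084 to 1.06), CA4 (−0.26 to 1.32), PPT2 (−0.47 to 0.78), DiT1 (−0.63 to 0.54), DiT2.1 (−0.28 to 1.29), DiT2.2 (−0.13 to 1.403), NAD-ME1 (−0.067 to 0.59), NAD-ME2 (−0.23 to 0.060), GOX2 (−0.19 to 0.13), AGT1 (−0.13 to 1.09), GLDT (−0.31 to 0.72), HPR2 (−0.17 to 0.048), GS2 (−0.21 to 0.74), GLU1 (−0.59 to 1.66), MCM6 (−0.63 to 1.76). With TMM the contrast was −0.12 for PPCK2, −0.17 for AlaAT2, −0.075 for PPT2 and −0.029 for GLDT, all above 0 without it. In edgeR it was −0.22 for PPCK2, −0.0093 for NADP-ME1, −0.20 for AlaAT2, −0.19 for PPT2, −0.0016 for NAD-ME1, −0.11 for GLDT, −0.042 for GS2 and −0.036 for GLU1, against values above 0 in limma. Depth limits single values under 1 RPM, such as WRKY53 in juvenile F. pubescens.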

Other observations

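Of 11 nitrogen assimilation genes none passed, and in mature leaves 6 were above F. pubescens and 5 below, 5 higher and 1 lower by at least 1. In mature leaves 23.0% of all tested loci were higher and 8.13% lower by at least 1. The list median was 0.26 in mature leaves, under the 0.36 of all loci, and −0.16 with TMM. ASN1, an asparagine synthetase, was the one lower by at least 1 (−1.64), and the 5 higher were GLN1 and NIA loci. The cytosolic glutamine synthetase loci GLN1;1, GLN1;2 and GLN1;3, which reassimilate ammonium and may share reads, stood at 2291, 4753 and 1714 RPM in mature F. brownii, at 448.2, 1023 and 345.3 RPM in juvenile F. brownii, and at 253.2, 478.4 and 160.8 RPM in mature F. pubescens. The nitrate reductase loci NIA1 and NIA2 were at 808.7 and 592.2 RPM against 323.0 and 181.2 RPM in mature leaves, and at 147.2 and 80.4 RPM against 127.4 and 75.4 RPM in juvenile leaves. None of these contrasts passed in limma (adjusted p from 0.0862 to 0.564). The defence gene PR1 was at 0.903 and 68.3 RPM in juvenile and mature F. brownii and at 0 in both F. pubescens libraries, at least 162.9-fold higher in mature leaves against a floor of 3 reads per library.

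CP12-3, of the Calvin-Benson regulator family, was at 54.2 and 101.8 RPM in juvenile and mature F. brownii and at 34.1 and 6.15 RPM in F. pubescens (contrast 2.25, adjusted p = 0.0525). Among the 879 loci higher in F. brownii, both F. brownii libraries exceeded all 14 other libraries at 140 loci (15.9%, against 3.47% of all tested loci), and both F. pubescens libraries lay under all of them at 71 (8.08%, against 1.36%). Among the 433 lower loci, F. brownii lay under all 14 at 6 (1.39%, against 0.501%) and F. pubescens over all 14 at 84 (19.4%, against 2.01%). These loci were chosen on values of the same libraries, so the shares are a description. The genes of this part were named after their values were seen.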
